A study of Capra hircus with 6 samples.

Results

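The miRNAs of the DLK1-DIO3 imprinted locus were described in the longissimus dorsi, a back muscle, in the Haimen goat. The members were a fixed list of 56 miRNAs, and a listed name belonged to it when its miRNA matched a member after species prefix, arm and variant suffix were taken away. The rule used names and no measured value. It found 118 of the 1120 names in the catalogue of expressed miRNAs, from 54 of the 56 members, and no name of miR-337 or miR-889 was listed. Small RNA was sequenced in 3 lamb libraries, from animals at 1 day of age, and 3 fetus libraries, from day 75 of pregnancy, all of the same breed and muscle, with no treatment or mutation in the labels. Listed miRNA reads numbered 6096009 to 9471852 per lamb library and 8506742 to 13756954 per fetal library. The muscle itself was checked on 7 striated muscle miRNAs, which were all listed. Their names summed to 254810 to 351884 CPM, the scaled read level explained below, in lambs and 62689 to 73718 CPM in fetuses.

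A miRNA is cut from a hairpin whose 5p and 3p arm can each give a mature strand, and bases 2 to 8 of that strand, the seed, pair with target messenger RNAs. In mammals the DLK1-DIO3 miRNAs are expressed from the maternal chromosome within long noncoding RNAs such as MEG3, an antisense RNA to RTL1, MEG8 and MIRG, while DLK1, RTL1 and DIO3 are expressed from the paternal one. The region is known in ruminant muscle from the callipyge mutation of sheep, which changes expression of the imprinted genes there and enlarges the hindquarter muscles. In mouse muscle, these miRNAs are known to be abundant in development and regeneration.

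RefSeq's goat assembly ARS1.2 holds genes for 44 of the 56 members, all with a listed name, on 1 chromosome. They run from MIR493 to MIR656, and the only other miRNA gene between these ends is MIR3955. The deposited files name no goat build, so the assembly was used for names and gene order only, and no coordinates are given. The mature sequences of the names on which the results turn are shown first, 5′ to 3′, as the files give them, with T for U and with bases 2 to 8 in capitals. In a name, the prefix is the species of the registry entry (chi goat, bta cattle, oar sheep, cgr Chinese hamster). By the usual notation, which the files do not spell out, L stands for the 5′ end and R for the 3′ end with the bases added or missing there, and ss marks a substitution. The first set holds the most abundant name, some of the 10 names with the smallest adjusted p, explained below, and the arm partner miR-409-5p.
chi-miR-127-3p_R+2: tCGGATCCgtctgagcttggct
chi-miR-409-3p_R+1: gAATGTTGctcggtgaacccct
chi-miR-409-5p: aGGTTACCcgagcaactttgcat
bta-miR-370: gCCTGCTGgggtggaacctggt
bta-miR-431_R-3: tGTCTTGCaggccgtcatgc
chi-miR-433: aTCATGATgggctcctcggtgt
chi-miR-432-5p_1ss23GT: tCTTGGAGtaggtcattgggtgt
chi-miR-758_R-1: tTTGTGACctggtccactaac

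The second set shows strands whose seed holds TCATA, read from the 3p arm except for the miR-376d name, whose arm was not assigned. TCATA is a stretch found in the seeds of 8 DLK1-DIO3 names and of none of the other 1001 names with a level. This stretch was picked after the values were seen. The goat miR-485-3p name starts 1 base later than its registry entry, and with that start its 7-base seed equals that of miR-154b-3p. The seeds of miR-487a-3p, miR-154a-3p and miR-539-3p are also equal, and so are those of bta-miR-376a, miR-376d and miR-376b-3p. The cattle entry bta-miR-376a carries the same sequence as the miR-376d name, and therefore the same reads. The goat entry of miR-376a is another sequence with the seed TAGATTC, and its arm was not assigned either.
chi-miR-485-3p_L-1: gTCATACAcggctctcctctct
chi-miR-154b-3p_R-1: aTCATACAtggttgaccttttt
chi-miR-487a-3p: aATCATACagggacatccagtt
chi-miR-154a-3p: aATCATACacggttcacctact
oar-miR-539-3p: aATCATACaaggacaatttcttt
chi-miR-376d_1ss20AG: aTCATAGAggaaaatccacgt
chi-miR-376b-3p_R+3: aTCATAGAggaaaatccatgtt

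The third set holds near-identical neighbours that bear on what a name can mean. The names chi-miR-381 and cgr-miR-300_R-2 differ within the seed, over the 20 bases they share, by A4G, counted from 1 at the 5′ end with the base of miR-381 first. The 3p names of miR-411a and miR-379 differ by C10T, outside the seed, with the base of miR-411a first. The miR-329b-3p and miR-329a-3p names are 1 sequence.
chi-miR-381: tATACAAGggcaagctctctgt
cgr-miR-300_R-2: tATGCAAGggcaagctctct
chi-miR-411a-3p: tATGTAACacggtccactaac
chi-miR-379-3p: tATGTAACatggtccactaac
chi-miR-329b-3p_R+2: aACACACCtggttaacctcttt

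DLK1-DIO3 names took a smaller share of the listed reads in lambs than in fetuses. The share was 24.3%, 28.8% and 27.1% in the lamb libraries, against 43.3%, 40.8% and 43.7% in the fetal libraries. The stages did not overlap, with means of 26.7% ± 2.31 in lambs and 42.6% ± 1.61 in fetuses (SD, n = 3 each). A single name, the 3p strand of miR-127, held 14.9% to 19.8% of all listed reads in lambs and 23.9% to 26.2% in fetuses. Without it, the other 117 names held 9.26% ± 0.161 in lambs and 17.8% ± 1.06 in fetuses. Between 99 and 104 of the 118 names had a read in a lamb library, and between 111 and 114 in a fetal library. The lamb libraries held fewer listed reads on average, and no such count was taken over all names. These shares move with whatever else a library holds. The striated muscle list held 22.5% to 29.9% of listed reads in lambs and 7.30% to 8.28% in fetuses. With that list left out of the total, an alternative added after seeing the data, DLK1-DIO3 names held 35.8% ± 1.72 in lambs and 46.3% ± 2.01 in fetuses. In bulk muscle, fewer cells that express the locus and less of its RNA per cell cannot be told apart.

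**Figure D1:**
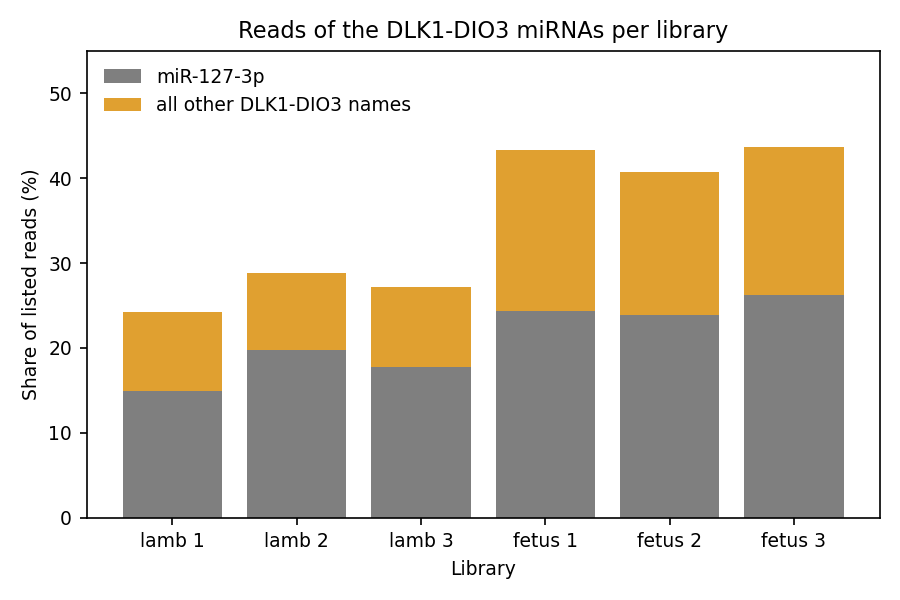
Share of listed miRNA reads (y axis, %) held by DLK1-DIO3 names in each library (x axis), with miR-127-3p in grey and all other DLK1-DIO3 names in orange. The 3 lamb bars reach 24.3% to 28.8% and the 3 fetal bars 40.8% to 43.7%.

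Levels (CPM) are counts per 1000000 listed reads of a library after TMM scaling, which sets libraries to a common level over most miRNAs. Differences are log2 of lamb over fetus from edgeR's quasi-likelihood test with their standard error (SE). A name was called at a Benjamini-Hochberg adjusted p under 0.05 over all 712 names tested. Of the 118 DLK1-DIO3 names, 106 passed edgeR's filter on low counts and 12 did not. Among the 106 tested names, 54 were lower and 6 higher in lambs, and 46 were not called. Over all 712 names tested, 27.1% (193) were called lower and 16.3% (116) higher, and with library totals in place of TMM 261 were lower and 72 higher, where 73 and 4 of the DLK1-DIO3 names were. The median log2 difference was -0.95 over the 106 DLK1-DIO3 names, 0.06 over the other 606 names and -0.12 over all 712. All 3 lamb libraries lay below all 3 fetal libraries for 69 of the 106 names, and above them for 9, where 36.5% and 20.4% of all names tested did so. The median of -0.95 is the same with the 2 tested names that had no read in lambs set to their bound. Of 27 names with a mean of 1000 CPM or more, 18 were lower and 1 was higher in lambs. Of 51 names between 10 and 1000 CPM, 28 were lower and 4 higher. Depth limits the scarcest: 40 of the 118 names averaged under 10 CPM, of which 28 were tested, 8 were lower and 1 was higher.

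**Figure D2:**
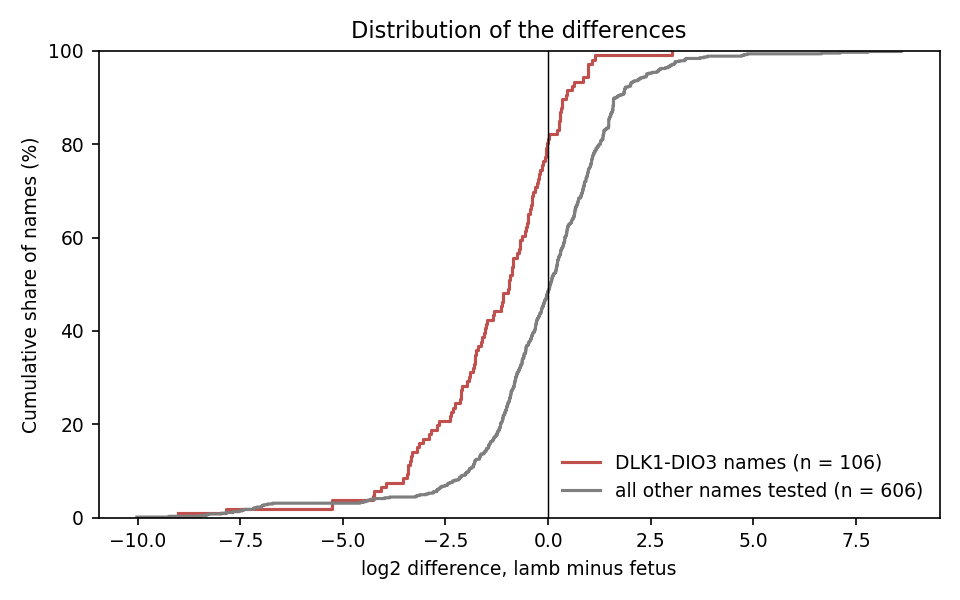
Cumulative share of names (y axis, %) up to each log2 difference, lamb minus fetus (x axis), for 106 DLK1-DIO3 names in red and the other 606 names tested in grey. The red line lies left of the grey one over most of the range, with medians of -0.95 and 0.06, and the far left end holds fitted values of names with no read in lambs.

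The 5 miRNAs that lie antisense to RTL1 in mouse and human (miR-431, miR-433, miR-127, miR-432 and miR-136) gave 11 tested names, of which 6 were lower in lambs and 5 were not called. The share called lower was 54.5% here, 50.9% over the tested names of the locus and 27.1% over all names tested. The most abundant of the whole locus, and of all listed names, is miR-127-3p, which in mouse is fully complementary to Rtl1 messenger RNA. It had 175619, 212464 and 206523 CPM in lambs, against 217168, 205294 and 232579.6 CPM in fetuses. The stages overlapped, and the log2 difference was -0.14 ± 0.10 (SE), adjusted p = 0.303. Its sign depended on the scaling: the difference was 0.03 with DESeq2's size factors in edgeR and 0.05 with the authors' library factors. With library totals alone it was -0.51, the only scaling under which it was called. The 5p strand of the hairpin, at 517 ± 85.9 CPM in lambs and 669 ± 126 CPM in fetuses (SD, n = 3 each), was not called either, with an adjusted p of 0.182. Neither strand of miR-136 was called, and the 3p strand had 468 ± 55.2 CPM in lambs and 339 ± 90.9 CPM in fetuses.

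The other 3 miRNAs of the antisense group were lower in lambs. miR-431, which in mouse muscle represses Pax7, had 46.4, 45.9 and 32.3 CPM in lambs, against 393, 323.1 and 384 CPM in fetuses. Every lamb library was below every fetal one, with a log2 difference of -3.14 ± 0.23 (SE), adjusted p = 0.000250. Its 3p strand had 19.0 ± 3.60 CPM in lambs and 91.1 ± 18.2 CPM in fetuses, a difference of -2.26, also called. miR-433, which in mouse muscle cells represses the Wnt antagonist sFRP2, had 1013, 932 and 793 CPM in lambs, against 3062, 3401 and 3055 CPM in fetuses. The values did not overlap, and the log2 difference was -1.80 ± 0.14 (SE), adjusted p = 0.000250. miR-432-5p had 1340.0, 1144 and 1174 CPM in lambs, against 4397, 4247 and 3949.8 CPM in fetuses. This was a difference of -1.78 ± 0.12 (SE), adjusted p = 0.000222, again with no overlap, and the 3p strand was lower too, at -1.56. Within this antisense group the log2 differences of called names ran from -3.14 to -1.56, while the names of miR-127 and miR-136 lay between -0.37 and 0.46.

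The hairpins that precede this group in gene order are miR-493 and miR-665, and 3 of their 4 tested names were lower in lambs, where 27.1% of all names tested were. miR-493-5p had 9182, 6512 and 7120.0 CPM in lambs, against 8944, 7221 and 7139 CPM in fetuses. Its stages overlapped and its difference was -0.03 ± 0.17 (SE), adjusted p = 0.894. The 3p strand of the same hairpin had 993, 973 and 978 CPM in lambs, against 2116, 1746 and 1818 CPM in fetuses, all lamb libraries being lower, with a difference of -0.95 ± 0.13 (SE), adjusted p = 0.00182. Both strands of miR-665 were lower: the 3p strand had 306 ± 112 CPM in lambs and 1365 ± 131 CPM in fetuses, and the 5p strand had 23.6 ± 14.2 CPM in lambs and 249 ± 20.1 CPM in fetuses. miR-370, which lies in the MEG8 region in mouse and human, had 944, 909 and 579 CPM in lambs, against 6423, 5782 and 5239 CPM in fetuses. The lamb values were all lower, a log2 difference of -2.84 ± 0.22 (SE), adjusted p = 0.000252. Its 5p strand differed by -0.43 and was not called, at an adjusted p of 0.130.

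The run from miR-379 to miR-410 holds most of the locus, with 83 tested names, of which 41 (49.4%) were lower in lambs and 6 higher. Over all names tested, 27.1% were lower, and over the locus 50.9%. Its names summed to 83939 ± 4945 CPM in lambs and 121245 ± 9208 CPM in fetuses. This count and sum follow the order in mouse and human. They hold miR-323b and miR-656, whose goat genes follow MIR410. They leave out miR-3958 and miR-3959, whose goat genes lie between MIR379 and MIR410. Among the 10 most abundant names of the locus, the difference was largest in miR-409-3p, with 1436, 1690.5 and 1155 CPM in lambs, against 16919, 15895 and 16995 CPM in fetuses. The stages did not overlap: the log2 difference was -3.54 ± 0.17 (SE), adjusted p = 0.000176, or 11.6-fold lower in lambs. The 5p strand of this hairpin, with 5435, 4239.8 and 5111 CPM in lambs, against 9495, 8094 and 7569 CPM in fetuses, was also lower without overlap but by less, at -0.77 ± 0.14 (SE), adjusted p = 0.00637. The 3p strand of miR-485 had 142, 212 and 129.9 CPM in lambs, against 2293, 2498 and 2698 CPM in fetuses. That is 15.5-fold lower in lambs, a log2 difference of -3.95 ± 0.24 (SE), adjusted p = 0.000176. miR-758, known in human and mouse cells to repress the cholesterol exporter ABCA1, had 525, 371 and 411.1 CPM in lambs, against 3262, 2366 and 2934 CPM in fetuses, with all lamb values lower and a difference of -2.71 ± 0.20 (SE), adjusted p = 0.000250. The 3p strand of miR-323a had 506, 614 and 523 CPM in lambs, against 1900.3, 1775 and 1874 CPM in fetuses, and its difference was -1.76 ± 0.14 (SE), adjusted p = 0.000250. miR-494, which in mouse muscle targets regulators of mitochondrial content, had 2574 ± 41.0 CPM in lambs and 7350.1 ± 1319.9 CPM in fetuses and differed by -1.51. It is named outside the selection rule, after its values were seen.

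Other abundant names of the run differed by less or were not called. miR-380-3p had 10487, 8436 and 10998 CPM in lambs, against 14703, 13845 and 15560.4 CPM in fetuses, lower in each lamb library, with a difference of -0.56 ± 0.13 (SE), adjusted p = 0.0134. The call was lost with DESeq2, with DESeq2's size factors in edgeR and without fetus replicate 3. The 3p strand of miR-543 had 6728, 5051 and 5072 CPM in lambs, against 10327, 10369.8 and 11677 CPM in fetuses, again lower without overlap, at -0.94 ± 0.15 (SE), adjusted p = 0.00313. miR-655 had 4853, 4251 and 5585 CPM in lambs, against 7596, 6031 and 7147 CPM in fetuses. Although these did not overlap, its difference of -0.50 ± 0.15 (SE), adjusted p = 0.0324 kept its call under only 7 of 14 alternatives, and without lamb replicate 1, lamb replicate 2 or fetus replicate 3 it was lost. miR-410-3p, which with miR-433 represses sFRP2 in mouse muscle cells, had 4974, 3994 and 5560.3 CPM in lambs, against 6192, 4930.2 and 5630.5 CPM in fetuses. These overlapped, at a difference of -0.21 ± 0.16 (SE), adjusted p = 0.320. The miR-3958-3p values of 8004, 7043 and 9314 CPM in lambs, against 9059, 7104 and 8322 CPM in fetuses overlapped fully, at -0.01 ± 0.15 (SE), adjusted p = 0.970. Both strands of miR-369, whose 3p strand is known in human cells to act on AU-rich elements, were not called either, with differences of -0.08 and -0.06.

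Several further names of the run are given after their values were seen, to show its range. The 5p strand of miR-379, the first gene of the run, had 1274, 1175 and 1362 CPM in lambs, against 2443, 1916 and 1715 CPM in fetuses, lower without overlap at -0.67 ± 0.17 (SE), adjusted p = 0.0166. miR-412-5p had 174, 169.9 and 163 CPM in lambs, against 734, 616 and 565 CPM in fetuses, at -1.92 ± 0.17 (SE), adjusted p = 0.000346. The miR-1197-3p name had 7.15, 10.6 and 11.3 CPM in lambs, against 62.3, 38.4 and 48.2 CPM in fetuses, at -2.36 ± 0.31 (SE), adjusted p = 0.00172. These 3 were called lower, and so was the 3p strand of miR-382, with 55.5 ± 9.89 CPM in lambs and 121 ± 24.8 CPM in fetuses, while its 5p strand, with 594 ± 80.8 CPM in lambs and 715 ± 61.8 CPM in fetuses, was not (adjusted p = 0.209). miR-495, which with miR-329, miR-487b and miR-494 is known in mouse to restrain vessel growth after ischaemia, had 3656, 2322 and 3273 CPM in lambs, against 2869, 2077 and 2718 CPM in fetuses for its 3p strand. These overlapped, with a difference of 0.27 ± 0.21 (SE), adjusted p = 0.319. Of these miRNAs, then, miR-494 and miR-487b had a called 3p strand and miR-495 and miR-329 did not.

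**Figure D3:**
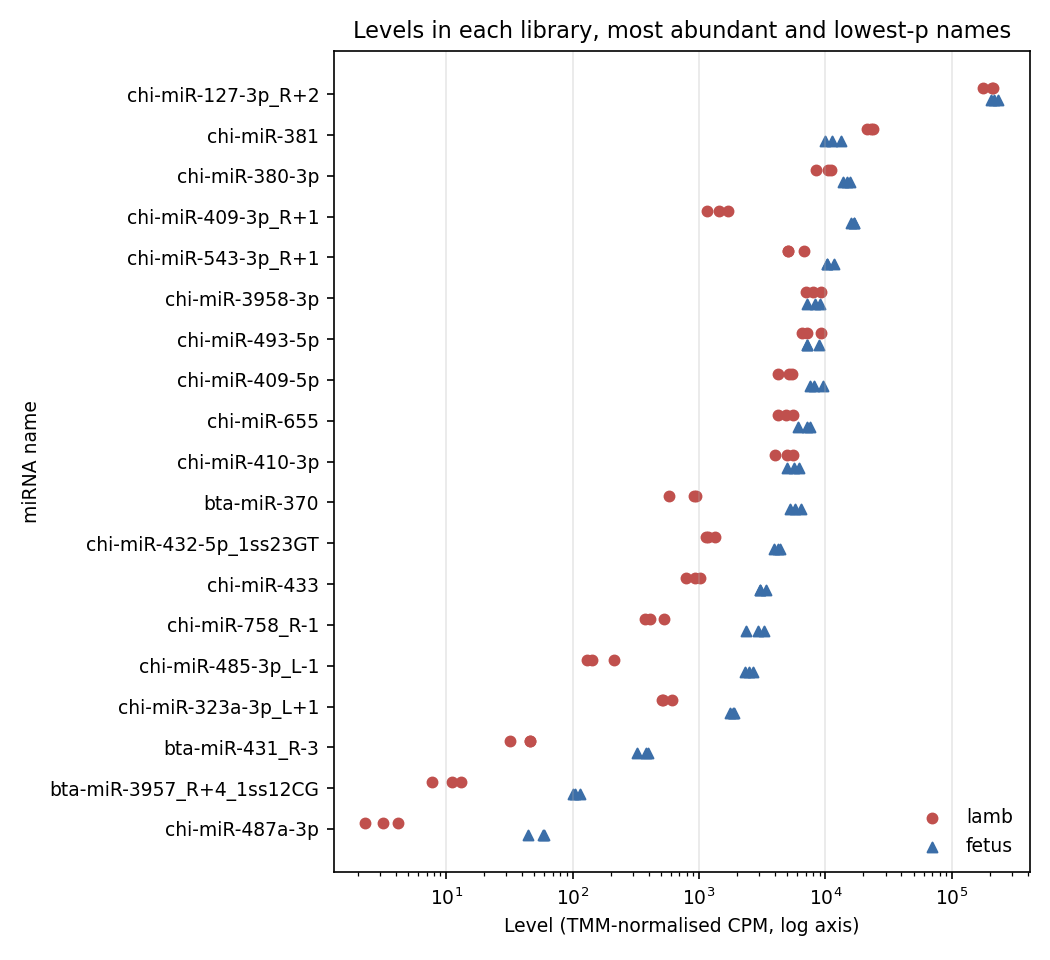
Level of each name (rows, by mean level) in each library on a log axis of TMM-normalised CPM, with lambs as red circles and fetuses as blue triangles, for 19 names: the 10 with the highest mean and the 10 with the smallest adjusted p, 1 name being in both. miR-127-3p, miR-3958-3p, miR-493-5p and miR-410-3p overlap between stages, chi-miR-381 lies higher in lambs, and the other names lie lower in lambs.

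The 6 names higher in lambs were all from the miR-379 to miR-410 run. The second most abundant name of the locus, miR-381, had 22940.4, 21399 and 23754 CPM in lambs, against 13267, 9904 and 11253 CPM in fetuses. All lamb libraries were above all fetal ones, a log2 difference of 0.98 ± 0.13 (SE), adjusted p = 0.00183. The 5p strand of its hairpin, named here after its values were seen like the other 4, had 421, 341 and 375 CPM in lambs, against 213, 172 and 192 CPM in fetuses, a difference of 0.98 ± 0.17 (SE), adjusted p = 0.00487. The commonest miR-300 name had 149.6, 204 and 209.6 CPM in lambs, against 97.7, 69.9 and 87.9 CPM in fetuses, at 1.14 ± 0.23 (SE), adjusted p = 0.00782. This name and the shorter cgr-miR-300_R-4 differ from miR-381 by A4G alone over the shared bases, and the other miR-300 names by 1 further base. Goat miR-300 has no entry in the RefSeq genes used here, so reads of a miR-300 gene and miR-381 reads with that base changed cannot be told apart. The other 2 called miR-300 names differed by 0.98 and 3.03. Together the miR-300 names equalled 1.18% ± 0.213 of the miR-381 reads in lambs and 1.04% ± 0.0618 in fetuses (SD, n = 3 each; two-sided exact permutation p = 0.40, where 0.10 is the smallest that 3 against 3 allow). The sixth name, a miR-654 entry from cattle, had 21.8, 20.3 and 21.8 CPM in lambs, against 12.8, 10.3 and 12.6 CPM in fetuses, with a difference of 0.84 ± 0.23 (SE), adjusted p = 0.0264. Next to them in size, the 5p strand of miR-377 differed by 1.07 and was not called (adjusted p = 0.0678).

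In gene order the calls did not form 1 block. MIR381, with both strands higher in lambs, stands between MIR1185, whose 3p strand was at -3.19, and MIR487B, whose 3p strand was at -0.51. MIR409, MIR412 and MIR496 had both tested strands lower, while MIR369 and MIR410, which follow MIR412, had none called. The last 2 genes, MIR323B and MIR656, were lower again at -2.13 and -1.48. The 3 miRNAs miR-3957, miR-3958 and miR-3959, known from sheep, differed among themselves. miR-3957 had 11.1, 13.1 and 7.73 CPM in lambs, against 114, 105 and 100.1 CPM in fetuses for the 5p name, at -3.32 ± 0.27 (SE), adjusted p = 0.000270, and neither strand of miR-3958 was called. The 3p strand of miR-3959 had 5.88, 13.6 and 11.5 CPM in lambs, against 131, 90.0 and 112 CPM in fetuses, a difference of -3.43 ± 0.38 (SE), adjusted p = 0.000858.

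**Figure D4:**
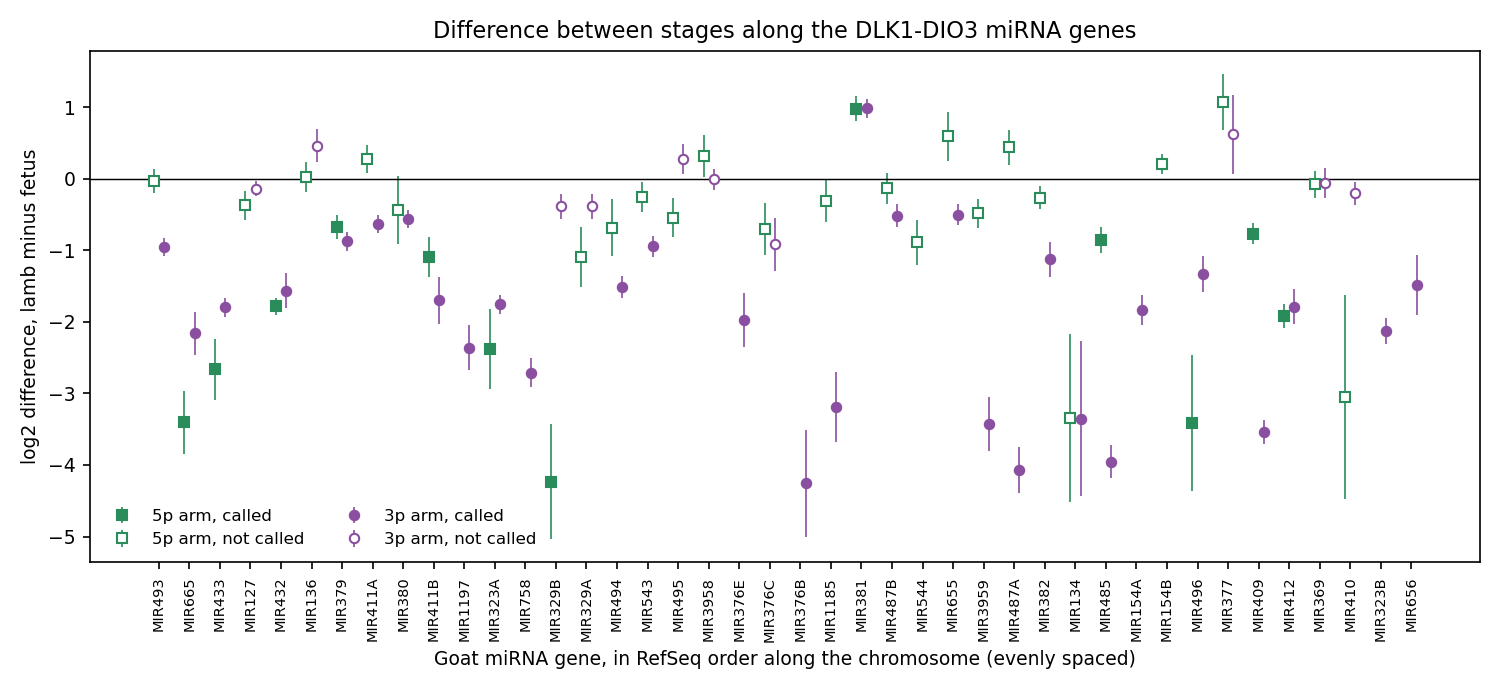
Log2 difference, lamb minus fetus, with its SE (y axis) for the most abundant 5p (green squares) and 3p (purple circles) name of 42 goat miRNA genes in RefSeq order (x axis, evenly spaced), filled where called. The 75 names leave out those with no read in any lamb, and the points of MIR381 stand above 0 while most filled points lie below it.

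Paralogous hairpins differed among themselves. Of the 7 tested names of the miR-376 group, known for edited bases in human and mouse, 4 were lower in lambs and 3 were not called. That is 57.1% lower, against 50.9% over the locus and 27.1% over all names tested. The more abundant name of miR-376a, the goat entry chi-miR-376a_R+2, had 15.7, 6.53 and 21.6 CPM in lambs, against 35.0, 25.7 and 26.0 CPM in fetuses, all lower in lambs but not called, at -0.98 ± 0.44 (SE), adjusted p = 0.122. The sequence shared by bta-miR-376a and the miR-376d name had 0.319, 0 and 0.491 CPM in lambs, against 11.1, 8.96 and 12.1 CPM in fetuses, a difference of -5.25 ± 0.69 (SE), adjusted p = 0.00172. Both names count as 1 set of reads. No arm was assigned to them or to chi-miR-376a_R+2, whose seed no other miR-376 name shares. A difference between arms and one between paralogs therefore cannot be told apart for chi-miR-376a_R+2. The miR-376b-3p name had 0.639, 0 and 0.613 CPM in lambs, against 9.20, 6.12 and 10.8 CPM in fetuses, at -4.26 ± 0.75 (SE), adjusted p = 0.00496. These are among the largest differences of the locus but rest on few reads in lambs. The miR-376e-3p name had 7.77 ± 2.92 CPM in lambs and 30.8 ± 6.29 CPM in fetuses and was lower at -1.98. The seed of miR-376c-3p equals that of miR-376e-3p, and it had 37.2 ± 13.7 CPM in lambs and 70.2 ± 22.6 CPM in fetuses, which overlapped and was not called (adjusted p = 0.0949).

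Of the miR-487 pair, miR-487a-3p had 2.30, 3.18 and 4.17 CPM in lambs, against 59.6, 44.8 and 57.9 CPM in fetuses. It was 16.7-fold lower in lambs, at -4.07 ± 0.32 (SE), adjusted p = 0.000261. The more abundant miR-487b-3p had 1747, 1584 and 2284 CPM in lambs, against 2889.7, 2498 and 2636 CPM in fetuses, and its difference of -0.51 ± 0.17 (SE), adjusted p = 0.0437 kept its call under only 3 of 14 alternatives. Leaving out lamb replicate 1 or 2, or any 1 fetal library, ended it. Its 5p strand had 34.8 ± 5.13 CPM in lambs and 38.1 ± 3.05 CPM in fetuses and was not called (adjusted p = 0.622). The 5p strand of miR-487a had 75.9, 97.4 and 61.7 CPM in lambs, against 53.1, 53.0 and 67.0 CPM in fetuses, overlapping and not called (adjusted p = 0.185). Of the miR-154 pair, miR-154a-3p had 99.0, 87.0 and 122 CPM in lambs, against 371, 306 and 421 CPM in fetuses, without overlap, at -1.83 ± 0.22 (SE), adjusted p = 0.00107. The miR-154b-3p name had no read in the 3 lamb libraries and 253 reads over the fetal libraries, which is at least 50.3-fold lower in lambs against a floor of 3 reads over the group. Its partner miR-154b-5p had 2848, 2647 and 2159 CPM in lambs, against 2082, 2207 and 2332 CPM in fetuses and was not called (adjusted p = 0.254).

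For the miR-411 pair, the strands miR-411b-5p at 32.4 ± 6.25 CPM in lambs and 69.1 ± 18.2 CPM in fetuses, miR-411b-3p at 12.7 ± 2.85 CPM in lambs and 41.1 ± 13.5 CPM in fetuses and miR-411a-3p at 2939 ± 222 CPM in lambs and 4548 ± 415 CPM in fetuses were lower in lambs. The fourth, miR-411a-5p, had 2218 ± 170.5 CPM in lambs and 1830.2 ± 474 CPM in fetuses, overlapping, with a difference of 0.28 and an adjusted p of 0.280. The call of miR-411b-5p was lost without lamb replicate 1 or fetus replicate 2. For the miR-329 pair, the 1 sequence listed as miR-329a-3p and miR-329b-3p had 690.1, 1009 and 850.4 CPM in lambs, against 1048, 1067 and 1207 CPM in fetuses and was not called, at -0.38 ± 0.18 (SE), adjusted p = 0.125. The 5p name of miR-329b had 2.81, 6.88 and 0.981 CPM in lambs, against 65.0, 102 and 29.9 CPM in fetuses, at -4.23 ± 0.80 (SE), adjusted p = 0.00642, with a wide spread among the fetal libraries.

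Of the 8 names whose seed holds TCATA, 7 could be tested, and each was lower in lambs, where 27.1% of all names tested were. Of the 7, bta-miR-376a and the miR-376d name share their reads. Their median log2 difference was -4.26, also with miR-154b-3p at its bound, and the smallest was the -1.83 of miR-154a-3p. Because the stretch was picked after the values were seen, this count is a description. The eighth name, miR-539-3p, was not tested. It had no read in lambs and 31 over the fetal libraries, and the 5p strand of miR-539 had 4.03 ± 1.90 CPM in lambs and 7.29 ± 0.726 CPM in fetuses and was not called. The miR-487b-3p name has TCGTA at the same place and differed by -0.51.

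The arms were then compared. Of 53 tested 3p names, 37 were lower and 1 was higher, with a median log2 difference of -1.53. Of 46 tested 5p names, 15 were lower and 1 was higher, with a median of -0.68. These are 69.8% of the 3p and 32.6% of the 5p names called lower, against 27.1% of all names tested, so the 5p share lies near that of all names. The ratio of the 2 strands of 1 hairpin tests whether the arms differed. It is taken within a library and so does not depend on how libraries are scaled. The log2 of 5p over 3p reads, with 1 read added to each, was tested with limma over all 169 hairpins whose arms both passed the filter. Past an adjusted p of 0.05 were 18 of the 41 DLK1-DIO3 hairpins, 13 with the 5p share higher in lambs and 5 with it lower. Over all 169 hairpins, 33.7% were called, 18.9% with the 5p share higher and 14.8% with it lower. The median difference was 0.21 over the 41 hairpins and 0.04 over all 169. This count depends on single libraries: it was 9 without fetus replicate 2, 11 without fetus replicate 3 and 12 without fetus replicate 1, and 16 to 20 without a lamb library. The count over all 169 hairpins fell with it, to 18, 25 and 29 in that order and to 39 to 45 without a lamb library, against 57.

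In miR-409, miR-485 and miR-1185 the commoner strand was another one in lambs than in fetuses, and miR-487a is given beside them. miR-409 gave 5p over 3p ratios of 3.79, 2.51 and 4.42 in lambs, against 0.561, 0.509 and 0.445 in fetuses. The 5p strand was thus the commoner in each lamb library and the 3p strand in each fetal library, a log2 difference in ratio of 2.79 ± 0.27 (SE), adjusted p = 0.000946. miR-485 gave 3.03, 1.82 and 2.29 in lambs, against 0.282, 0.285 and 0.243 in fetuses, with the same turn, at 3.12 ± 0.24 (SE), adjusted p = 0.000396. miR-1185 gave 2.33, 1.12 and 4 in lambs, against 0.253, 0.265 and 0.310 in fetuses, at 2.99 ± 0.47 (SE), adjusted p = 0.00840. miR-487a gave 31.3, 29.1 and 14.4 in lambs, against 0.891, 1.18 and 1.16 in fetuses. Its fetal strands were nearly equal, and the 5p strand prevailed in lambs, at 4.46 ± 0.35 (SE), adjusted p = 0.000396.

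In the other hairpins with a higher 5p share in lambs, the commoner strand stayed the same. miR-370 gave 0.0585, 0.0540 and 0.0741 in lambs, against 0.0109, 0.0106 and 0.0127 in fetuses, so the 3p strand prevailed throughout, at 2.44 ± 0.21 (SE), adjusted p = 0.000523. miR-299 gave 5.43, 6.70 and 5.92 in lambs, against 1.37, 1.64 and 1.86 in fetuses, at 1.90 ± 0.20 (SE), adjusted p = 0.00144. Its 5p strand differed by 0.29 (adjusted p = 0.0615) and its 3p strand by -1.61 (adjusted p = 0.000882). miR-3959 gave 41.9, 15.7 and 19.9 in lambs, against 3.09, 3.24 and 2.51 in fetuses, at 3.01 ± 0.39 (SE), adjusted p = 0.00368. miR-154b had no 3p read in lambs, and its log2 difference in ratio, 5.69 ± 0.39 (SE), adjusted p = 0.000396, depends on the added read. The remaining 5, miR-541, miR-411a, miR-493, miR-543 and miR-655, differed by 0.70 to 1.15. The calls of miR-543 and miR-655 were lost without any 1 of the 6 libraries, those of miR-493 without any 1 fetal library, that of miR-411a without fetus replicate 2 or 3 and that of miR-541 without fetus replicate 2. In 10 of these 13 hairpins only the 3p level was called lower in lambs, and in the other 3 both were.

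The 5p share was lower in lambs in miR-431, miR-665, miR-758, miR-3957 and miR-329b. miR-431 gave 2.10, 2.29 and 2.15 in lambs, against 3.52, 3.78 and 5.02 in fetuses, at -0.90 ± 0.21 (SE), adjusted p = 0.0257. miR-665 gave 0.0481, 0.0994 and 0.0826 in lambs, against 0.189, 0.186 and 0.173 in fetuses, at -1.32 ± 0.30 (SE), adjusted p = 0.0258. miR-3957 gave 0.101, 0.142 and 0.0466 in lambs, against 0.381, 0.388 and 0.282 in fetuses, at -1.99 ± 0.44 (SE), adjusted p = 0.0216. miR-329b gave 0.00426, 0.00700 and 0.00130 in lambs, against 0.0621, 0.0960 and 0.0248 in fetuses, at -3.97 ± 0.77 (SE), adjusted p = 0.0155. The stages did not overlap in these 4 hairpins. The 3p reads in the miR-329b ratio are those of the sequence shared with miR-329a-3p, so this ratio cannot be assigned to 1 hairpin. The ratio of miR-329a-5p to that same sequence was not called, at -0.60 ± 0.32 (SE), adjusted p = 0.204. The call of miR-431 was lost without lamb replicate 1 or 3 or fetus replicate 2 or 3, those of miR-665 and miR-3957 without any 1 fetal library, and that of miR-329b without fetus replicate 1 or 2. The 5p name of miR-758 had no read in lambs and 109 over the fetal libraries, at least 21.7-fold lower. Of the 18 hairpins, 9 were called in every alternative in which they could be tested: miR-409, miR-485, miR-487a, miR-1185, miR-370, miR-299, miR-3959, miR-154b and miR-758. For miR-154b and miR-758, with 1 strand at no read in lambs, the ratio depends on the added read. These could not be tested with no read added or with both arms at 100 reads or more. The 2 strands of miR-381 were both higher in lambs, and their ratio was not called: it was 0.0184, 0.0160 and 0.0158 in lambs, against 0.0160, 0.0174 and 0.0170 in fetuses, a difference of -0.01 ± 0.17 (SE), adjusted p = 0.959.

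The strands of these hairpins not described so far had the following levels. miR-485-5p had 372 ± 67.8 CPM in lambs and 671 ± 34.7 CPM in fetuses, which was lower in lambs at -0.85 and lost its call without fetus replicate 2. Both strands of miR-541 were lower. The 5p strand had 278 ± 61.1 CPM in lambs and 617 ± 84.0 CPM in fetuses, and the 3p strand had 14.8, 9.53 and 11.8 CPM in lambs, against 57.1, 46.8 and 53.4 CPM in fetuses. The 3p strands of miR-3957, with 124 ± 39.2 CPM in lambs and 309 ± 42.8 CPM in fetuses, and of miR-1185, with 3.49 ± 2.11 CPM in lambs and 31.6 ± 6.39 CPM in fetuses, were lower too.

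Partner strands on the 5p arm were not called in 4 hairpins. miR-3959-5p had 233 ± 17.6 CPM in lambs and 326 ± 69.3 CPM in fetuses, with an adjusted p of 0.0986. For miR-1185-5p the levels were 6.93 ± 0.364 CPM in lambs and 8.61 ± 1.70 CPM in fetuses, with an adjusted p of 0.399. The miR-543-5p name had 27.5 ± 3.39 CPM in lambs and 32.7 ± 0.468 CPM in fetuses, with an adjusted p of 0.348. The miR-655-5p values of 11.6 ± 1.17 CPM in lambs and 7.70 ± 2.43 CPM in fetuses gave an adjusted p of 0.194.

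**Figure D5:**
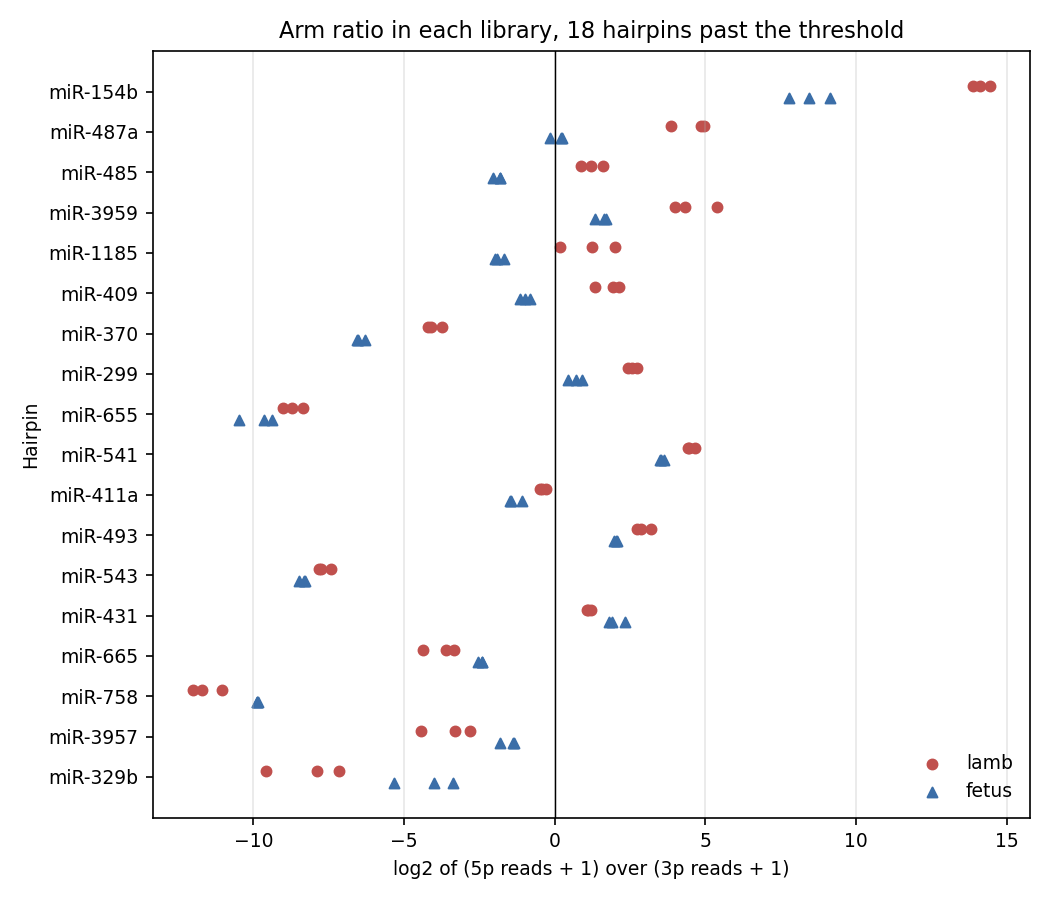
Log2 of 5p over 3p reads, each with 1 read added (x axis), in each library for the 18 DLK1-DIO3 hairpins past the threshold (rows), with lambs as red circles and fetuses as blue triangles. The stages do not overlap in any row, and miR-409, miR-485 and miR-1185 lie on opposite sides of 0 in lambs and fetuses.

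The names themselves were compared with miRBase by the authors. Of the 118 names, 43 were identical with a registry entry, 36.4% with an exact 95% interval of 27.8% to 45.8%, while 71 differed and 4 were new arms. The interval treats names as independent, although they include both arms and variants of the same miRNAs, and names are not replicates. Of the other 1002 names, 250 were identical, 463 differed and 289 were classed as new. The new class thus held 28.8% of the other names and 3.39% of the 118, so the shares identical are not alike in make-up. Among the 71 differing names, 37 had another 3′ end alone, 11 another 5′ end alone, 9 had both ends changed and 14 carried a substitution. A changed 5′ end, which shifts the seed, was present in 21 of the 71. The 3′ end was longer in 27 of the differing names without a substitution and shorter in 19. The length was 22 bases in 54 names and 21 to 23 in 100. Goat entries numbered 67 of the 118 and held 95.8% to 97.6% of the DLK1-DIO3 reads. The remaining names carried a prefix of another species, most often sheep with 19 and cattle with 13. Of 42 tested names identical with the registry, 28 were lower in lambs and 1 was higher, and of 61 differing ones, 25 were lower and 5 higher, where 27.1% of all names tested were lower and 16.3% higher.

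The levels of marker miRNAs of other cell types are set beside these results. For the stromal and smooth muscle list (names of miR-214, miR-199a, miR-145, miR-143), the summed level was 19568 to 31964 CPM in lambs and 37865 to 44341 CPM in fetuses, with 3 of 10 tested names lower and 3 higher. The endothelial miR-126 names summed to 3515 to 3722 CPM in lambs and 1700 to 2093 CPM in fetuses, with 2 of 3 higher. The white blood cell list summed to 593 to 1084 CPM in lambs and 190 to 200 CPM in fetuses, with 2 of 5 higher and 1 lower, and the red blood cell names of miR-144 and miR-451 to 63.2 to 114 CPM in lambs and 114 to 250 CPM in fetuses, with 1 of 3 lower. Neuronal miRNAs (miR-9, miR-124a and miR-138) summed to 6.71 to 10.7 CPM in lambs and 12.2 to 23.6 CPM in fetuses, with miR-124a at 0 in all lambs, and epithelial ones to 12.5 to 15.1 CPM in lambs and 2.84 to 72.9 CPM in fetuses. The 1 neuronal and 3 epithelial names tested were not called, and 1 of each had an unadjusted p under 0.05. Of the 12 tested striated muscle names, 7 were higher in lambs and 1, miR-499-5p, was lower. The part of these cell types in the DLK1-DIO3 differences was not tested.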

How the data were processed

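Small RNA libraries (TruSeq, size-selected on a gel, HiSeq, per the labels' protocols) of each stage, 3 from lambs and 3 from fetuses, were grouped by title. The authors deposited raw reads per listed name, which hold fractions where reads were shared between names and were taken to be expected counts. The deposited normalised signal equals the raw value times 1 factor per library and was used for those factors only. The deposited p-value is from the authors' own test. The aligner, the miRBase release and any goat build were not given in the sources used here, and mm9 is the only build in the submitters' processing notes. Expected counts were rounded and tested with edgeR 4.0.16 (TMM, filterByExpr, quasi-likelihood, 712 names), arm ratios with limma 3.58.1, and DESeq2 1.42.0 was an alternative. Scripts were tested on simulated data. The labels do not say that libraries came from separate animals, so a p-value reflects the spread among these samples, which can be technical, and no more. Intervals and floors cover counting error only. Members, lists and tests were chosen with earlier results of these data known. Values are given for the 10 most abundant names, the 10 with the smallest adjusted p, the 5 largest called differences, paralogs averaging 10 CPM or more and hairpins called by arm ratio. Other names with values fall outside this rule, whether or not they are marked so. Examples without a mark are miR-127-5p, miR-136-3p, miR-323b, miR-656 and the strands of miR-369 and miR-134. All such names are to be read as chosen after the values were seen, and the rest come in counts. Arms missing from a name were read from a shared stretch of 12 bases or as the partner of a named arm.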

Additional observations from a re-analysis of the deposited data

How the results depend on the processing

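Over the planned and added alternatives, 46 to 73 names of the locus were lower in lambs and 4 to 9 higher, always within 1.5 times the 54 and 6 reported. Over all names tested, the counts ran from 139 to 261 and from 67 to 158, leaving out the alternative that summed names per miRNA arm. No called DLK1-DIO3 name changed sign where it was called again. Of 933 values of single names and hairpins under an alternative, 851 kept their side of the threshold, 61 lost the call and 21 gained one. A value that was not called could change sign and still count among the 851. An example is miR-493-5p, which ran from -0.41 to 0.16. The scaling moved the median of all names from -0.12 (TMM) to 0.04 with DESeq2, 0.07 with the authors' library factors, -0.28 with TMM computed without the locus and -0.49 with library totals only. The lower and higher counts of the locus were 50 and 9, 49 and 8, 56 and 5, and 73 and 4 in that order. Over all 712 names they were 183 and 158, 169 and 139, 215 and 96, and 261 and 72. The difference in share of listed reads, -15.9 percentage points for lambs minus fetuses, was -12.4 with miR-127-3p left out of both the locus and the total and -10.5 with the striated muscle list left out, and -16.9 to -14.6 without a single library. Names of the locus identical with a registry entry made up 50.7% among goat entries and 37.7% without new arms. No such share was taken for the names outside the locus, of which 250 were identical and 463 differed with the new class left out. Hairpins of the locus called by arm ratio numbered 9 to 20 without a single library, where 18 to 45 of all 169 were called. With both arms at 100 reads or more, 15 of 27 were called, against 43 of all 94. With no read added, 17 of 35 were called, against 50 of all 138. After each stage was centred on its mean, the correlations of same-numbered libraries were 0.14, 0.31 and -0.33. Not every library correlated best with its own number. With 3 libraries per stage, such correlations cannot decide whether the replicate numbers of the titles pair the samples. With the replicate block, 50 names of the locus were lower and 5 higher, against 148 and 80 over all 712. By arm ratio, 12 of its hairpins were then called, against 31 of all 169. Depth limits the 12 names that were not tested.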

Other observations

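The 4 names of miR-134, a miRNA known in rat neurons to act on dendritic spines, were all at 0 in 1 of the 3 lamb libraries. The main 5p name had 10.9, 7.76 and 0 CPM in lambs, against 64.9, 60.9 and 62.6 CPM in fetuses, and was not called (adjusted p = 0.0585), while the 3p name had 4.47, 5.12 and 0 CPM in lambs, against 27.3, 36.5 and 33.2 CPM in fetuses and was (adjusted p = 0.0437). Over 21 shared bases, miR-379-3p and miR-411a-3p differ by 1 base, and the ratio of miR-379-3p to miR-411a-3p reads was 27.9% to 29.7% in lambs and 33.2% to 34.2% in fetuses, with no overlap. Of the 118 names, 9 had no read in any lamb library and 2 had none in any fetal library. In the authors' deposited table, 59 of the 118 names had an unadjusted t test p-value under 0.05, where 313 of all 1119 names did. Of the 59 names, 49 were lower in lambs. The 59 included 51 of the 60 names called with edgeR.

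The 8 bases TGGTCCAC, searched on the given strand only, occurred in 6 of the 116 distinct DLK1-DIO3 sequences and in none of the 809 other listed sequences, and the 6 are 3p strands of miR-379, miR-380 (2 names), miR-411b, miR-412 and miR-758. This stretch was picked after the sequences were seen, and nothing was tested on it.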
